A study of Homo sapiens with 12 samples.

Results

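SCC25, an established line of head and neck squamous cell carcinoma (HNSCC) derived from the tongue, was compared after cetuximab and after phosphate-buffered saline (PBS). All 8920 cells in the samples labelled SCC25 were taken, of 23914 single-cell transcriptomes from 3 HNSCC lines (SCC1, SCC6 and SCC25), all of which are sensitive to the antibody. The comparison had 4 samples, 2 cetuximab and 2 PBS replicates, with 1999 and 2027 treated cells and 2318 and 2576 untreated cells in replicates 1 and 2. Cells had received 100 nM cetuximab or PBS daily for 5 days in medium with serum, and RNA was counted in droplets by 3′ tags with unique molecular identifiers (UMIs). No genotype or allele distinguishes the groups. Each line is 1 cell population in culture without immune, stromal or vascular cells. Whether replicates were separate cultures or separate libraries of 1 culture is not clear from the sources, and every error and p-value below may therefore cover only the spread between libraries.

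Cetuximab binds the extracellular part of the epidermal growth factor receptor (EGFR) and keeps ligands such as amphiregulin and TGF-alpha from activating it. In squamous epithelium EGFR signalling drives proliferation of basal cells through RAS and MAPK, and its blockade is known to slow the cell cycle and to alter differentiation and inflammatory gene expression. An epithelial-to-mesenchymal shift, in which keratins give way to vimentin, matrix proteins and actin-based contractile proteins, is a known accompaniment of resistance to EGFR blockade in HNSCC. Type I and III interferons act on target genes through an interferon-stimulated response element (ISRE), and smooth muscle-type contractile genes are known targets of serum response factor at the CArG box.

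The 4 samples held 80948957 and 112170073 UMIs (PBS) and 88046685 and 104642298 UMIs (cetuximab). Median UMIs per cell ran from 31947.5 to 47606 and median detected genes from 5204 to 6167. By correlation over 2000 genes with the summed profile of each line, 8920 of 8920 cells were most like SCC25. The SCC25 profile was summed from these same cells, which favours this outcome, so it is no independent check of the label. Squamous markers (KRT5, KRT14, KRT17, KRT6A, TP63, PERP, DSP and JUP) summed to 6986 to 14197 UMIs per 1000000 (CPM). Of 12 immune markers, PTPRC, CD3E, CD3D, CD2, MS4A1, LYZ and NKG7 had 0 to 7 UMIs in any sample, and CD2 and MS4A1 were at 0 in all 4. CD14 had 122 to 539 UMIs, CSF1R 19 to 39 and FCER1G 2 to 11. The immune list summed to 119 to 193 CPM, of which CD68, a lysosomal gene, made up 116 to 188. The 6 endothelial markers summed to 46.9 to 52.2 CPM, 46.3 to 51.6 of it from EGFL7. The 8 fibroblast markers were all detected and summed to 21.7 and 40.5 CPM in PBS and 48.0 and 84.1 CPM in cetuximab (8.50 to 56.1 CPM of it from LUM and 4.99 to 16.2 CPM from COL1A1), and their part in the results below was not tested. Erythroid and liver markers summed to 0.341 to 0.754 CPM, and melanocyte and neural markers to 1.57 to 2.68 CPM.

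The replicates of a group stood apart. Among 5166 genes with a mean of at least 20 CPM, 423 differed more than 2-fold between the PBS replicates and 262 between the cetuximab replicates. Cetuximab and PBS of the same replicate number differed by as much at 203 genes in replicate 1 and 81 in replicate 2. The comparison was defined as paired by replicate number, and these counts did not decide that choice. In this paired test (edgeR, false discovery rate (FDR) below 0.05) 175 of 17897 genes passed, 0.978% of those tested, and 2720 had an unadjusted p below 0.05. Of these, 138 were higher with cetuximab (0.771%) and 37 lower (0.207%). All 175 had the same sign in both pairs, which a paired test on these pairs favours by its selection. Over all 17897 genes tested, 5360 were higher in both pairs and 5753 lower in both. The median log2 fold change over all genes tested was 0.00. Without the pairing no gene passed (edgeR, 0 genes, with 1041 at an unadjusted p below 0.05), while DESeq2 passed 101 genes unpaired and 607 paired. The smallest unpaired FDR was 0.0519, that of CPA4. A fit without replicate 1 or without replicate 2 keeps 1 SCC25 sample per treatment and takes its spread from SCC1 and SCC6 only. Genes passing in such fits are therefore not taken as results. By pair, the log2 change was 2.27 and 2.99 for TAGLN, 1.94 and 2.52 for CPA4 and 1.39 and 2.22 for TNC. It was 4.47 and 2.83 for IL32 and 3.24 and 1.30 for IFI6.

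**Figure D1:**
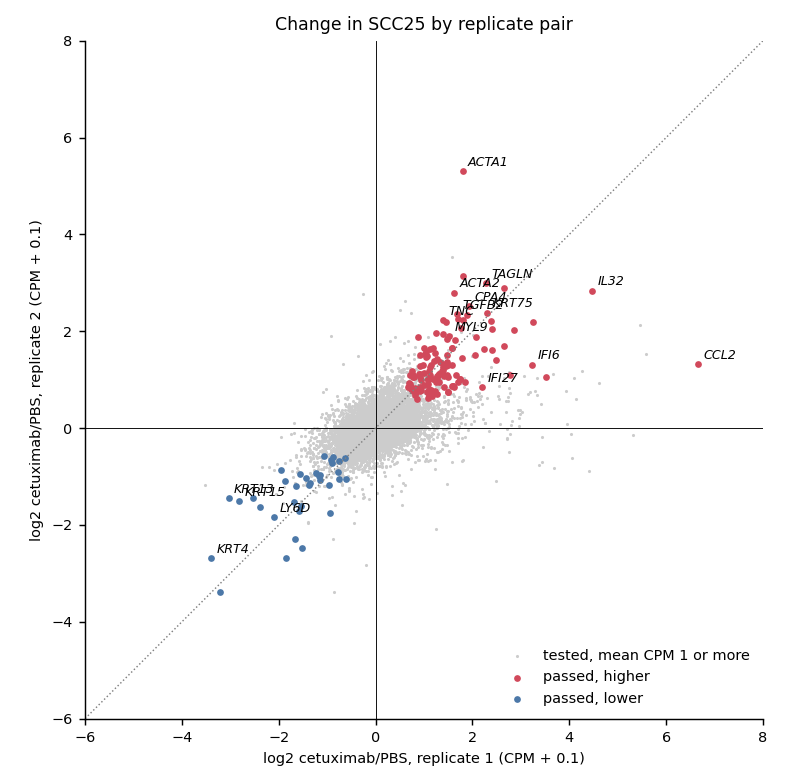
Change of each tested gene with a mean of at least 1 CPM in replicate pair 1 (x axis) and pair 2 (y axis), as log2 of cetuximab over PBS with 0.1 CPM added to both, and the genes that passed the paired test in red (higher) and blue (lower). Genes that passed lie in the upper right or lower left quadrant, IL32, IFI6 and CCL2 to the right of the dotted line of equal change, and TAGLN, ACTA1 and ACTA2 above it.

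Over the 138 higher genes the median log2 change was 1.38 in pair 1 and 1.19 in pair 2, and 74 of them changed more in pair 1. The 37 lower genes had medians of -1.52 and -1.17, and 25 of them changed more in pair 1. The PBS and cetuximab values did not overlap for 129 of the 138 higher and 24 of the 37 lower genes. Over all genes tested, 14.4% lay above PBS and 15.3% below PBS without overlap. Low transcripts contributed to the count, since 79 of the 175 had a mean of at least 20 CPM and 13 a mean below 1 CPM.

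Of 24 contractile genes, which build and regulate actin and myosin filaments, 22 were higher with cetuximab in both pairs, against 5360 of all 17897 genes. TAGLN, which encodes the actin-binding protein transgelin, measured 119.6 and 100.3 CPM in the PBS replicates and 579 and 799.7 CPM in the cetuximab replicates 1 and 2. Both treated samples lay far above both untreated ones, and the gene rose by 2.63 ± 0.20 on the log2 scale (FDR = 0.00579). MYL9, the regulatory light chain of non-muscle and smooth muscle myosin, measured 287 and 406 CPM in PBS and 824 and 1516 CPM in cetuximab and rose by 1.71 ± 0.17 (FDR = 0.009). TPM1, an actin-stabilising tropomyosin, went from 451 and 439.7 CPM to 1226 and 1065 CPM and rose by 1.36 ± 0.12 (FDR = 0.00679). For CALD1, caldesmon, the values were 295 and 162 CPM against 643 and 499 CPM, a rise of 1.37 ± 0.14 (FDR = 0.009). None of these 4 genes overlapped between groups.

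Of 24 contractile genes tested, 10 rose, 0 fell and 14 did not pass, against 0.771% of all genes that passed as higher. The median of their log2 fold changes was 0.93, beside 0.00 for all genes, and 1 of 24 was lower with cetuximab in both pairs. TPM2 rose by 0.80 ± 0.13, MYL6, the essential myosin light chain, by 0.73 ± 0.11 (from 1674 and 1868 CPM to 3039 and 2849 CPM) and TGFB1I1, a focal adhesion adaptor, by 1.40 ± 0.19. The muscle-type members stood at low levels. ACTA2, smooth muscle alpha-actin, measured 2.59 and 3.90 CPM in PBS and 8.22 and 27.6 CPM in cetuximab and rose by 2.27 ± 0.34 (FDR = 0.0281). Its UMIs came from few cells, with 84.9% of them in the 10% of cells with most of them in cetuximab replicate 2. ACTG2, enteric gamma-actin, went from 8.73 and 11.6 CPM to 20.1 and 36.7 CPM and MYL7, an atrial myosin light chain, from 2.25 and 1.21 CPM to 8.17 and 11.5 CPM. TAGLN2, a more widely expressed relative of TAGLN, measured 837 and 1259 CPM against 1282 and 1365 CPM and did not pass (FDR = 0.302). The median over the list was 0.66 in pair 1 and 1.08 in pair 2.

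**Figure D2:**
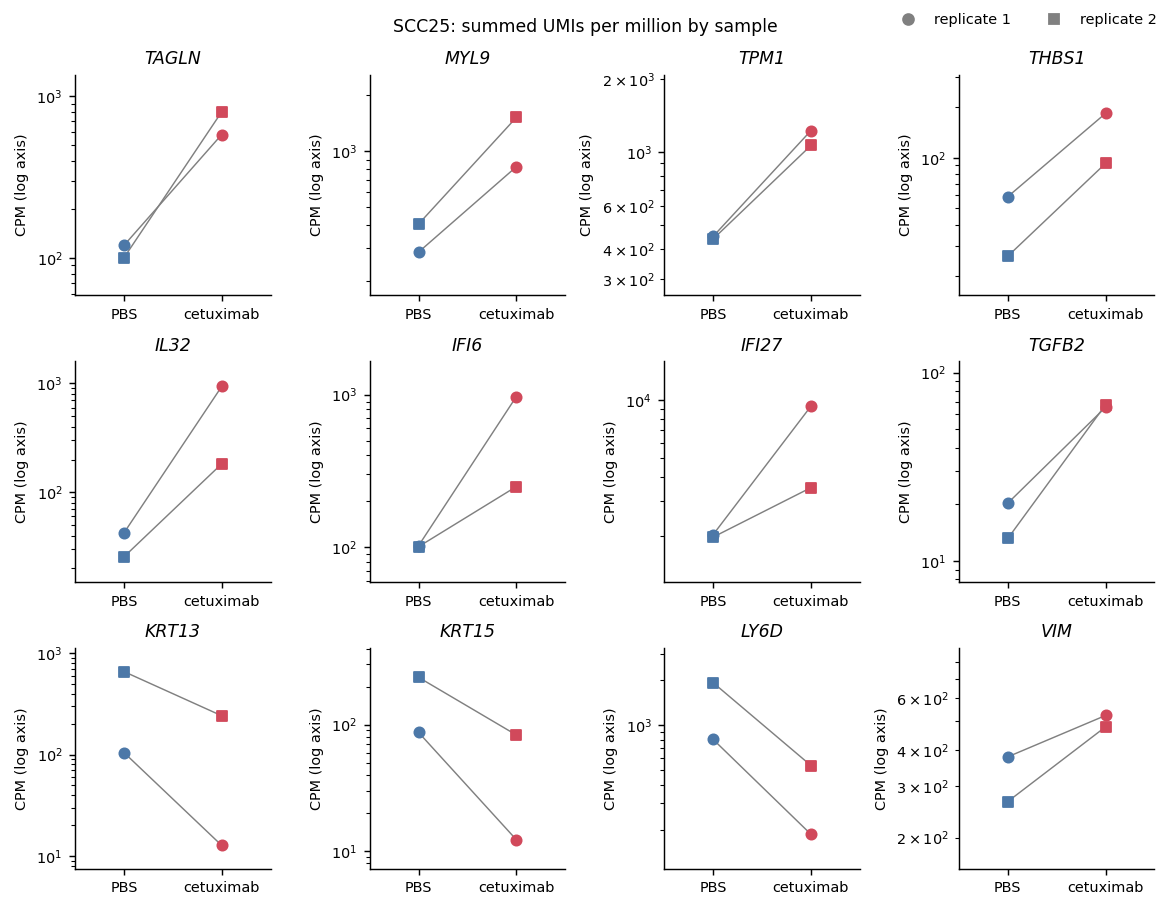
Level of 12 genes in each of the 4 SCC25 samples (CPM on a log axis), PBS in blue and cetuximab in red, with circles for replicate 1, squares for replicate 2 and a line joining each pair. Both lines climb for TAGLN, MYL9, TPM1, THBS1, IL32, IFI6, IFI27 and TGFB2 and descend for KRT13, KRT15 and LY6D, while the 2 KRT13 lines lie far apart.

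CArG boxes were searched in the 250 bases before the start of each gene, on both strands, in the promoter table (RefSeq, GRCh38.p14), where the motif was read as CC, 6 bases of A or T, and GG. It was present in 312 of 27195 promoters (1.15%) and in 7 of the 21 contractile genes with an entry (33.3%). Of the genes tested that had an entry, 128 of 12086 carried it (1.06%). Among all genes that rose it was in 5 of 97 entries (5.15%), and among those that fell in 1 of 24 (4.17%). The windows of ACTG2 and MYL7 of the list and of ACTA1, all of which rose, are shown 5′ to 3′ on the strand of the gene, in lower case with the motif in capitals, because each carries the box close to its start. A match describes these letters only and does not show that a factor was bound. ACTA1, skeletal alpha-actin, is not in the list and was chosen after its values were seen.
ACTG2 (chr2:73892905-73892974, + strand): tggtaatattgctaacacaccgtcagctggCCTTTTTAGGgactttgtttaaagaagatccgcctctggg
MYL7 (chr7:44141354-44141423, - strand): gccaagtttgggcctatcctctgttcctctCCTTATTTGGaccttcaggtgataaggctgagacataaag
ACTA1 (chr1:229434152-229434221, - strand): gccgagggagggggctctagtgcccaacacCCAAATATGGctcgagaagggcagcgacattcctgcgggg
Between the box and the start lie 63 bases in ACTG2, 51 in MYL7 and 87 in ACTA1. ACTA1 measured 0.112 and 0.126 CPM in PBS and 0.637 and 8.82 CPM in cetuximab, the last value from 893 UMIs in 67 of 2027 cells, up to 237 UMIs in a single cell. The promoters of ACTA2, TPM1, TPM2, CALD1, TGFB1I1 and MYL6 had 0 matches in this window, and TAGLN and MYL9 had no entry.

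Of the matrix and mesenchymal genes, 9 rose. THBS1, the matricellular protein thrombospondin-1, measured 58.7 and 26.1 CPM in PBS and 183 and 92.5 CPM in cetuximab and rose by 1.73 ± 0.15 (FDR = 0.00679). TNC, tenascin-C, measured 60.04 and 20.7 CPM against 157 and 96.8 CPM and rose by 1.81 ± 0.21 (FDR = 0.0146). Both genes were higher in replicate 1 than in replicate 2 under either treatment. FN1, fibronectin, stood at 54.8 and 11.4 CPM in PBS and 116 and 22.95 CPM in cetuximab, and rose by 1.04 ± 0.12 (FDR = 0.0146). Cetuximab replicate 2 lay below PBS replicate 1 for this gene, and the unpaired test gave FDR = 0.980. CDH2, N-cadherin, rose by 0.95 ± 0.16, from 68.3 and 30.2 CPM to 136 and 56.4 CPM, again with overlap of the groups. The collagen genes COL4A1, COL5A2, COL6A1 and COL6A2 rose by 1.28 ± 0.16, 1.28 ± 0.16, 1.13 ± 0.17 and 1.23 ± 0.20, each without overlap of the groups. LUM, the proteoglycan lumican and also a fibroblast marker here, rose by 1.00 ± 0.13, from 8.57 and 30.6 CPM to 18.1 and 57.99 CPM.

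Of 36 mesenchymal and matrix genes tested out of 38, 9 rose, 0 fell and 27 did not pass, against 0.771% of all genes that passed as higher. Their median log2 fold change was 0.86, and 27 of 36 were higher in both pairs, against 5360 of all 17897 genes. VIM, the intermediate filament vimentin that the study followed as its mesenchymal marker, measured 378 and 266 CPM in PBS and 524 and 479 CPM in cetuximab. The treated values lay above the untreated ones, but the log2 difference of 0.66 ± 0.32 did not pass (FDR = 0.372). The other abundant members, LGALS1 (3084 and 2646 against 5449 and 3271 CPM) and ITGB1 (358 and 249 against 475 and 315 CPM), did not pass either. Without replicate 1 the median of the list was 0.92, and without replicate 2 it was 0.94. Of 26 epithelial junction genes tested 0 passed in edgeR, where 0.978% of all genes passed, and 2 were higher in DESeq2. Against 2720 of all 17897 genes, 6 of these 26 had an unadjusted p below 0.05 in edgeR. Their log2 fold changes were above 0 for 13 and below 0 for 13, with a median of -0.01. PERP (576 and 1024 against 769.8 and 986 CPM), CLDN1 (68.8 and 156 against 223 and 231 CPM) and DSP (184 and 145 against 156 and 123 CPM) were the most abundant, and CDH1, E-cadherin, measured 33.6 and 30.1 CPM in PBS and 62.8 and 52.9 CPM in cetuximab (FDR = 0.0831).

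**Figure D3:**
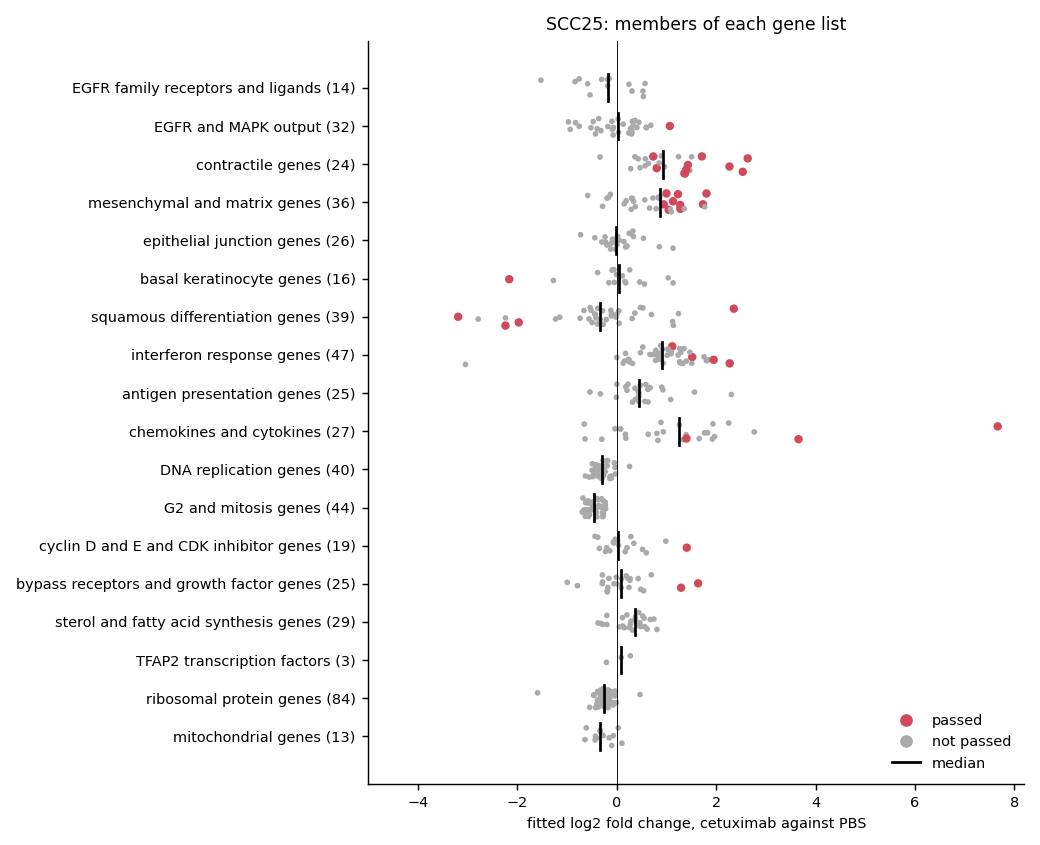
Fitted log2 fold change of cetuximab against PBS in SCC25 for every tested member of 18 gene lists (number of members in brackets), with members that passed in red and the list median as a black bar. Medians lie at 0.93 for contractile, 0.86 for mesenchymal and matrix, 0.92 for interferon response and -0.46 for G2 and mitosis genes.

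Several of the largest rises were of genes for secreted factors. TGFB2, a ligand of the TGF-beta receptors, measured 20.3 and 13.2 CPM in PBS and 65.5 and 67.5 CPM in cetuximab and rose by 2.02 ± 0.23 (FDR = 0.0132). EDN1, the vasoactive peptide endothelin-1, measured 36.1 and 36.8 CPM against 170.1 and 114 CPM and rose by 1.93 ± 0.28 (FDR = 0.0261). IGFBP7, a secreted binding protein of insulin-like growth factors, went from 585 and 761 CPM to 1528 and 1750.0 CPM (1.29 ± 0.15, FDR = 0.0125), and PDGFB, a ligand of the PDGF receptors, from 9.31 and 4.82 CPM to 28.1 and 15.5 CPM (1.64 ± 0.23, FDR = 0.0232). These 2 genes were the only ones to pass of 25 bypass receptor and growth factor genes tested out of 26, against 0.771% of all genes, and the list median was 0.09. The abundant IGFBP6 (908 and 1277 against 845 and 1102 CPM) and IGFBP3 (325 and 361 against 736 and 311 CPM) did not pass, nor did the receptor AXL at 96.8 and 43.8 CPM in PBS and 91.8 and 65.03 CPM in cetuximab (log2 difference 0.25 ± 0.18, FDR = 0.57). CPA4, a secreted carboxypeptidase, rose by 2.24 ± 0.17 (FDR = 0.00579), from 10.2 and 9.15 CPM to 39.5 and 52.97 CPM. GSTM3, a glutathione transferase, rose by 1.66 ± 0.15 from 75.4 and 149 CPM to 210.3 and 538 CPM, and NUAK1, an AMPK-related kinase, by 1.49 ± 0.14 from 19.8 and 12.0022 CPM to 54.9 and 34.2 CPM.

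The interferon response genes that rose changed more in replicate 1 than in replicate 2. IFI27, a mitochondrial protein strongly induced by type I interferon, measured 2025 and 1966 CPM in PBS and 9258 and 3529 CPM in cetuximab and rose by 1.52 ± 0.26 (FDR = 0.0418). IFI6 measured 103 and 101 CPM against 969 and 249.8 CPM and rose by 2.27 ± 0.38 (FDR = 0.041). The PBS replicates were nearly equal for both genes, and cetuximab replicate 1 lay far above cetuximab replicate 2. IFIT2 (31.7 and 57.6 against 89.05 and 96.5 CPM) rose by 1.12 ± 0.18, and RSAD2, the antiviral enzyme viperin (3.24 and 4.31 against 22.6 and 9.34 CPM), by 1.95 ± 0.35. Of 47 interferon response genes tested, these 4 rose, 0 fell and 43 did not pass, against 0.771% of all genes that passed as higher. The median log2 fold change was 0.92, with 39 of 47 higher in both pairs, against 5360 of all 17897 genes. For 35 of 47 the groups did not overlap, against 14.4% of all genes that lay above PBS without overlap. By pair the median was 1.56 in replicate 1 and 0.34 in replicate 2. In the fit without replicate 1 the median was 0.36. ISG15, an abundant ubiquitin-like member, measured 738 and 819 CPM in PBS and 2946 and 1186 CPM in cetuximab and did not pass (FDR = 0.0952), like IFITM3 (746 and 1094 against 1768 and 1364 CPM) and IFIT1 (17.9 and 54.4 against 124 and 90.5 CPM). GBP1, an interferon-induced GTPase outside the lists and chosen after its values were seen, rose by 1.38 ± 0.24 from 56.5 and 93.00 CPM to 189.7 and 189 CPM.

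The ISRE, read here as GAAANNGAAA on either strand, was found in 836 of 27195 promoters (3.07%). It was in 289 of the 12086 genes tested that had an entry (2.39%) and in 21 of the 37 interferon response genes with an entry (56.8%). Among all genes that rose it was in 9 of the 97 entries (9.28%), and among those that fell in 0 of 24. Of these 9, the list members IFI6 and IFI27 are shown as above with the element in capitals, beside GBP1, chosen after its values were seen, and the abundant ISG15.
IFI6 (chr1:27672246-27672315, - strand): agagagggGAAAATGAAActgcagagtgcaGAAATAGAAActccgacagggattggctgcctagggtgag
IFI27 (chr14:94110611-94110680, + strand): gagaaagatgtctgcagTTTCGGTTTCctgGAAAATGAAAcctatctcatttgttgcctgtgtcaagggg
GBP1 (chr1:89065296-89065365, - strand): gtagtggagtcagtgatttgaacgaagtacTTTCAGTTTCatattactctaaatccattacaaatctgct
ISG15 (chr1:1013360-1013429, + strand): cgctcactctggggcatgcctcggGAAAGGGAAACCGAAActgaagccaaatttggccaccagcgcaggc
The windows of IFI6 and IFI27 each hold a pair of separate elements and that of ISG15 an overlapping pair, and between the element nearest to the start and the start itself lie 83 bases in IFI6, 85 in IFI27, 117 in GBP1 and 97 in ISG15. IL32 and RSAD2 had 0 matches, and IFIT2 had no entry.

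IL32, an inflammatory cytokine, had the largest rise of the genes with at least 20 CPM. It measured 42.3 and 25.5 CPM in PBS and 939 and 183 CPM in cetuximab (3.66 ± 0.51, FDR = 0.0232). Both treated samples exceeded both untreated ones, with the larger change in replicate 1. CSF1, the macrophage growth factor, rose by 1.40 ± 0.25 from 11.97 and 14.1 CPM to 43.5 and 27.2 CPM. CCL2, a monocyte chemoattractant, had 2 UMIs in each PBS sample against 1078 and 20 UMIs in the cetuximab samples (FDR = 0.0183), and the 1078 came from 139 of 1999 cells. Cetuximab replicate 2 had its 20 in 3 cells. These 3 rose and 0 fell of 27 chemokine and cytokine genes tested out of 29, against 0.771% of all genes that passed as higher, with a median log2 fold change of 1.26 that was 1.85 in pair 1 and 0.03 in pair 2. CXCL10, a T cell chemoattractant, also stood apart in cetuximab replicate 1, at 8.31 and 13.6 CPM in PBS and 205 and 25.9 CPM in cetuximab (FDR = 0.166), and CCL5 measured 18.8 and 23.7 against 128 and 53.2 CPM (FDR = 0.0833). The abundant TNFSF10 (171 and 653 against 277 and 449 CPM) and IL18 (71.2 and 104 against 65.1 and 74.7 CPM) overlapped between groups. IFNL3, a type III interferon named after its values were seen, had 3 and 7 UMIs in PBS and 50 and 75 UMIs in cetuximab (FDR = 0.04). The cetuximab UMIs came from 8 cells in each sample, with 22 in a single cell of replicate 1 and 54 in a single cell of replicate 2. In PBS replicate 2 a single cell held 6 of the 7.

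No antigen presentation gene passed of 25 tested in edgeR, where 0.978% of all genes passed, and 2 were higher in DESeq2. Against 2720 of all 17897 genes, 9 of these 25 had an unadjusted p below 0.05 in edgeR. The median log2 fold change was 0.44, from 0.82 in pair 1 and 0.05 in pair 2. B2M, the light chain of MHC class I, measured 2238 and 3099.6 CPM in PBS and 4836 and 3426 CPM in cetuximab. HLA-B, a heavy chain, measured 584 and 1307 against 1748 and 1532 CPM. The treated values of both genes lay above the untreated ones, but PBS replicate 2 came close to them. HLA genes share near-identical stretches, and how reads shared between them were counted is not given in the sources used here.

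Of the squamous differentiation genes, 3 fell. KRT13, a keratin of stratified mucosal epithelium, measured 105 and 662 CPM in PBS and 12.7 and 242 CPM in cetuximab, so that the groups overlapped while each pair fell (by 2.24 ± 0.32 on the log2 scale, FDR = 0.0261). KRT4, its type II partner, fell by 3.19 ± 0.46, from 106 and 3085 UMIs in PBS to 3 and 461 UMIs in cetuximab. LY6D, a surface protein of stratified epithelium, measured 802 and 1920.0 CPM against 186 and 537 CPM without overlap and fell by 1.97 ± 0.16 (FDR = 0.00579). In contrast KRT75, a keratin of the hair follicle companion layer, rose by 2.35 ± 0.23 from 6.90 and 10.9 CPM to 34.5 and 57.1 CPM. Of 39 squamous differentiation genes tested out of 46, 1 rose, these 3 fell and 35 did not pass, against 0.207% of all genes that passed as lower. The median was -0.33, with 18 of 39 lower in both pairs, against 5753 of all 17897 genes. The abundant KRT6A (823 and 1196 against 889 and 940.0 CPM) and ANXA1 (362 and 1159 against 575 and 1119 CPM) overlapped between groups.

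KRT15, a keratin of quiescent basal cells, fell by 2.16 ± 0.28 (FDR = 0.0193), from 86.6 and 237 CPM to 12.2 and 82.7 CPM. It was the single member to pass of 16 basal keratinocyte genes, against 0.978% of all genes, and the list median was 0.05. The other basal keratins did not pass. KRT14 measured 2564 and 4675 CPM against 2106 and 3337 CPM, KRT5 1002 and 2281 against 1022 and 2097 CPM, and KRT17 1710.5 and 3145 against 3697 and 6996 CPM, higher within each pair (log2 difference 1.13 ± 0.23, FDR = 0.0725). Further large falls were ALDH3A1, an aldehyde dehydrogenase of stratified epithelium (18.8 and 143 CPM in PBS and 3.50 and 45.8 CPM in cetuximab, by 2.01 ± 0.20), and AQP3, a water and glycerol channel (106 and 338 against 32.9 and 117 CPM, by 1.61 ± 0.18). ELF3, an epithelial ETS factor, fell by 1.12 ± 0.19, FAM213A by 1.23 ± 0.15, GAL, the neuropeptide galanin, by 1.09 ± 0.19, FBP1, a gluconeogenic phosphatase, by 0.90 ± 0.15 and CLU, clusterin, by 0.83 ± 0.14. For these 5 genes and for ALDH3A1, AQP3 and KRT13 the groups overlapped. Of the 37 genes that fell, 33 were higher in PBS replicate 2 than in PBS replicate 1, and 34 were higher in cetuximab replicate 2 than in cetuximab replicate 1.

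EGFR, the target of the antibody, measured 88.5 and 109.6 CPM in PBS and 99.6 and 137 CPM in cetuximab and did not pass (log2 difference 0.24 ± 0.13, FDR = 0.419). Of 14 EGFR family receptor and ligand genes 0 passed, where 0.978% of all genes did (edgeR, 1 at an unadjusted p below 0.05, and 0 in DESeq2), with a median of -0.18. The ligand genes NRG1 (97.00 and 42.7 against 76.9 and 41.8 CPM) and AREG (61.5 and 32.3 against 44.1 and 29.6 CPM) were higher in replicate 1 than in replicate 2 under either treatment. Of 32 EGFR and MAPK output genes 1 passed, against 0.978% of all genes, and the list median was 0.03. This was CDC42EP3, an effector of CDC42, which rose by 1.07 ± 0.12 from 71.3 and 95.8 CPM to 143 and 209 CPM. JUNB measured 417 and 905 against 384 and 593 CPM and PHLDA1 494 and 349.8 against 438 and 349 CPM. CCND1, the G1 cyclin D1, measured 889 and 959 against 1256 and 1548 CPM, higher in both treated samples, at FDR = 0.0531. TFAP2A, the transcription factor that the study followed, measured 60.04 and 54.5 CPM in PBS and 61.3 and 60.4 CPM in cetuximab (log2 difference 0.09 ± 0.12, FDR = 0.78), and of 3 TFAP2 genes tested out of 5 0 passed (0 at an unadjusted p below 0.05, 0 in DESeq2). TFAP2C measured 11.4 and 14.3 against 10.2 and 12.1 CPM and TFAP2E 0.174 and 0.292 against 0.209 and 0.356 CPM.

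Proliferation genes had small negative changes, none of which passed in edgeR, where 0.207% of all genes passed as lower. Of 44 G2 and mitosis genes, 44 had a negative log2 fold change, 41 were lower in both pairs and 25 reached an unadjusted p below 0.05, with a median of -0.46. In DESeq2 4 of them passed as lower. Over all 17897 genes tested, 5753 were lower in both pairs and 2720 had an unadjusted p below 0.05 in edgeR. TOP2A, topoisomerase II alpha, measured 116 and 108 CPM in PBS and 72.3 and 70.01 CPM in cetuximab (-0.66 ± 0.18, FDR = 0.146), and MKI67 measured 143 and 107 against 108 and 66.9 CPM (-0.54 ± 0.20, FDR = 0.252). The most abundant members were CKS1B (682 and 494 against 609 and 371 CPM), CKS2 (484 and 418 against 406 and 314 CPM) and UBE2C (348 and 368 against 336 and 274 CPM). Of 40 DNA replication genes, 39 had a negative log2 fold change and 31 were lower in both pairs, with a median of -0.31, and 0 passed in edgeR (7 at an unadjusted p below 0.05) or DESeq2. TK1 (157 and 222 against 177 and 151 CPM), PCNA (113 and 245 against 147 and 162 CPM) and TYMS (64.5 and 100.4 against 58.95 and 63.9 CPM) were highest in PBS replicate 2. Among 19 cyclin D and E and CDK inhibitor genes CDKN2B, the TGF-beta-responsive inhibitor p15, rose by 1.41 ± 0.17 (FDR = 0.0193), from 19.6 and 43.8 CPM to 55.4 and 109 CPM. No other member rose and 0 fell, against 0.978% of all genes that passed. CDKN1A, p21, measured 55.1 and 71.7 against 87.2 and 73.1 CPM and CDK4 235 and 217 against 200.3 and 193 CPM.

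Of 29 sterol and fatty acid synthesis genes 0 passed in edgeR, where 0.978% of all genes passed, and 2 were higher in DESeq2. Against 2720 of all 17897 genes, 11 of these 29 had an unadjusted p below 0.05 in edgeR. The list median was 0.37. FDPS measured 92.8 and 154 against 121 and 127 CPM, ACAT2 45.6 and 88.6 against 62.5 and 76.6 CPM and DHCR7 33.1 and 57.7 against 53.2 and 69.8 CPM. Ribosomal protein genes were lower in both pairs for 82 of 84 tested, against 5753 of all 17897 genes, with a median of -0.25. Of the 84, 0 passed in edgeR (49 at an unadjusted p below 0.05, and 1 lower in DESeq2). RPS2 measured 14791 and 10557 CPM in PBS and 9000.4 and 8134 CPM in cetuximab (FDR = 0.0598), RPLP1 11053 and 8056 against 6724 and 7011 CPM and RPS18 8564 and 7138 against 6239 and 6083 CPM. The 13 mitochondrially encoded genes had a median of -0.33, and 0 passed in edgeR (7 at an unadjusted p below 0.05, and 2 lower in DESeq2). MT-CO1 (6080.4 and 7367 against 6468 and 7992 CPM) and MT-CO2 (6722 and 9649.5 against 6888 and 9845 CPM) overlapped between groups and MT-CO3 (8214 and 7599 against 5517 and 6185 CPM) did not.

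To see how the changes were spread over cells, each cell was thinned to 15000 UMIs, which left out 316 shallower cells and kept 8604. With 2 samples against 2, an exact permutation test cannot give a p below 0.333, and these shares are given without a test. TAGLN was detected in 44.9%, 37.04%, 77.8% and 80.5% of cells in PBS replicates 1 and 2 and cetuximab replicates 1 and 2. TGFB2 was detected in 21.4%, 13.7%, 50.1% and 45.5%, THBS1 in 43.3%, 24.7%, 72.5% and 57.95% and CPA4 in 11.1%, 8.79%, 28.4% and 33.7%. For each of these genes the treated samples lay above the untreated ones. IL32 went from a minority of untreated cells to nearly all cells of cetuximab replicate 1, with 23.7%, 18.5%, 97.9% and 56.2%, and IFI6 was found in 48.4%, 48.8%, 98.7% and 73.9%. LY6D was detected in 84.4%, 95.2%, 49.2% and 72.8%, KRT15 in 42.6%, 68.7%, 12.2% and 39.7% and KRT13 in 42.2%, 84.6%, 10.1% and 62.8%, so that KRT13-positive cells were more frequent in cetuximab replicate 2 than in PBS replicate 1. VIM was detected in 78.2%, 54.6%, 81.8% and 77.1%, TFAP2A in 58.00%, 51.1%, 59.1% and 56.5%, EGFR in 69.8%, 73.2%, 72.8% and 82.8% and MKI67 in 60.3%, 40.2%, 43.2% and 24.2%. The genes PTPRC, CD3E, ALB and HBB, which squamous cells should lack, were detected in at most 0.137% of cells in each sample after the same thinning. Exact 95% intervals (Clopper-Pearson, counting error only) spanned at most 4.52 percentage points from end to end. Without thinning TAGLN was detected in 60.4%, 54.7%, 90.2% and 92.6% of cells, IL32 in 36.6%, 33.3%, 99.3% and 76.2%, IFI6 in 67.3%, 69.9%, 99.95% and 92.2%, KRT13 in 57.9%, 94.99%, 18.1% and 81.6% and LY6D in 93.7%, 99.2%, 69.6% and 89.5%, in samples whose median depth ran from 31947.5 to 47606 UMIs per cell.

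**Figure D4:**
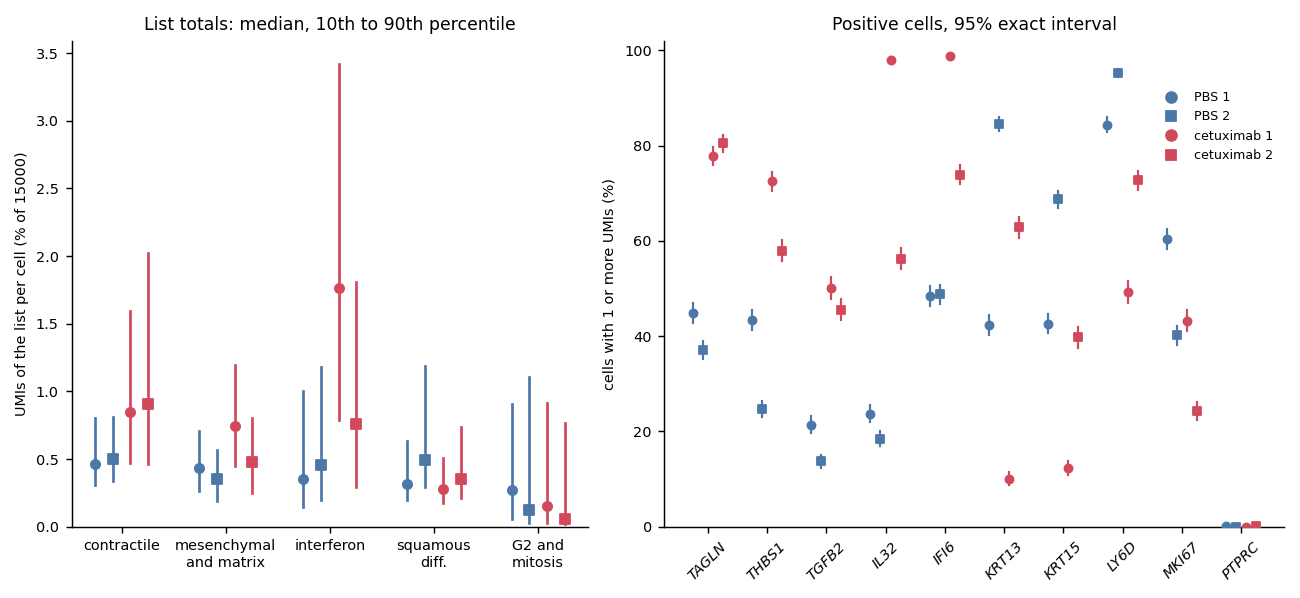
Left, share of 15000 UMIs per cell that fell on each of 5 gene lists (%), as the median (circle, replicate 1, or square, replicate 2) and the 10th to 90th percentile of cells (line). Right, percentage of thinned cells with at least 1 UMI of a gene, with exact 95% intervals that cover counting error only. Blue is PBS and red cetuximab, and PTPRC, at the right, is the background gene.

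Summed over the list, contractile genes took a median 0.467%, 0.5%, 0.847% and 0.907% of the UMIs of a cell in the same order of samples. The 10th percentile of cells was 0.307% and 0.340% in PBS and 0.473% and 0.467% in cetuximab, and the 90th percentile 0.807% and 0.812% against 1.59% and 2.02%, so that both ends of the distribution were higher. Interferon response genes took 0.353%, 0.453%, 1.77% and 0.76%, mesenchymal and matrix genes 0.433%, 0.353%, 0.747% and 0.48%, squamous differentiation genes 0.313%, 0.493%, 0.28% and 0.353% and G2 and mitosis genes 0.273%, 0.12%, 0.153% and 0.0533%. Within each sample, cells with more contractile UMIs had more matrix UMIs (Spearman rho 0.433 to 0.620 over cells of the 4 samples), and the interferon and antigen presentation totals went together (rho 0.640 to 0.697). Cells rich in interferon transcripts had fewer G2 and mitosis transcripts (rho -0.524 to -0.197). Contractile and interferon totals were nearly unrelated, with rho 0.036 and -0.168 in the PBS samples and 0.171 and -0.072 in the cetuximab samples. These correlations are across cells of single libraries with a fixed UMI total, and cells are not independent replicates.

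The treatment effect in SCC25 was then set against that in SCC1 and SCC6, which had their own PBS samples. Against SCC1, 4 of 17897 genes differed in effect (0.0224%, edgeR, with 1375 at an unadjusted p below 0.05), and for all 4 the effect was lower in SCC25. CD24, a mucin-like adhesion molecule, measured 593 and 645 against 692 and 777 CPM in SCC25 and 1.13 and 1.14 against 8.61 and 7.50 CPM in SCC1, where it was barely expressed (difference of the log2 effects -2.57 ± 0.17, FDR = 0.00397). CLU fell in SCC25 and rose in SCC1, with 16.01 and 19.9 CPM in PBS and 49.6 and 60.3 CPM in cetuximab there (-2.45 ± 0.21, FDR = 0.00909). OASL, an interferon-induced gene, measured 62.5 and 152 against 83.5 and 136 CPM in SCC25 and 30.4 and 13.7 against 151 and 79.6 CPM in SCC1 (-2.29 ± 0.23, FDR = 0.0327). HRASLS2, which is named because it completes the 4, measured 0.872 and 1.82 against 1.14 and 1.78 CPM in SCC25 and 2.54 and 1.23 against 25.7 and 12.7 CPM in SCC1 (-3.20 ± 0.26, FDR = 0.00909).

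Against SCC6, 109 genes differed in effect (0.609%, with 3395 at an unadjusted p below 0.05), 42 with a higher and 67 with a lower effect in SCC25. For 107 of the 109 the effect was larger in size in SCC6, and 12 of the 109 had passed in SCC25. VIM had an effect of 0.66 in SCC25 and 3.88 in SCC6, where it went from 33.6 and 92.8 CPM to 841 and 805 CPM (difference -3.22 ± 0.46, FDR = 0.0334). The matrix and contractile genes FN1 (-1.53 ± 0.17), COL4A1 (-1.71 ± 0.23), TPM1 (-1.42 ± 0.16), ACTG2 (-2.38 ± 0.21) and MYL7 (-3.83 ± 0.62) rose in SCC25, and their effects were smaller than in SCC6. KRT14 measured 0.931 and 0.424 CPM in PBS and 2.52 and 1.49 CPM in cetuximab in SCC6, a level far below that in SCC25, and its effects were -0.39 in SCC25 and 1.60 in SCC6 (difference -1.99 ± 0.21, FDR = 0.0183). GSTM4, a glutathione transferase, and ACKR3, a scavenging receptor of CXCL12, had effects of 0.64 and 0.90 in SCC25 and 3.10 and 3.06 in SCC6. In the other direction KRT7, a simple epithelial keratin, rose in SCC25 by 0.85 ± 0.12 (964 and 1383 against 1824 and 2367 CPM) and fell in SCC6 (452 and 326 against 225 and 218 CPM, difference 1.64 ± 0.17, FDR = 0.0183). LY6K, a relative of LY6D, measured 279 and 229 against 245 and 195 CPM in SCC25 and 41.9 and 34.5 against 6.44 and 8.29 CPM in SCC6 (difference 2.17 ± 0.25, FDR = 0.0183), and AQP3 fell in both lines, by less in SCC25 (difference 1.99 ± 0.26, FDR = 0.0251). Without pairing, 0 genes differed from SCC1 or SCC6 in edgeR (462 and 1558 at an unadjusted p below 0.05), while DESeq2 found 6 and 176 unpaired. Leaving out SCC25 replicate 1 or 2 leaves 1 SCC25 sample per treatment, so genes differing in those fits are not taken as results.

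**Figure D5:**
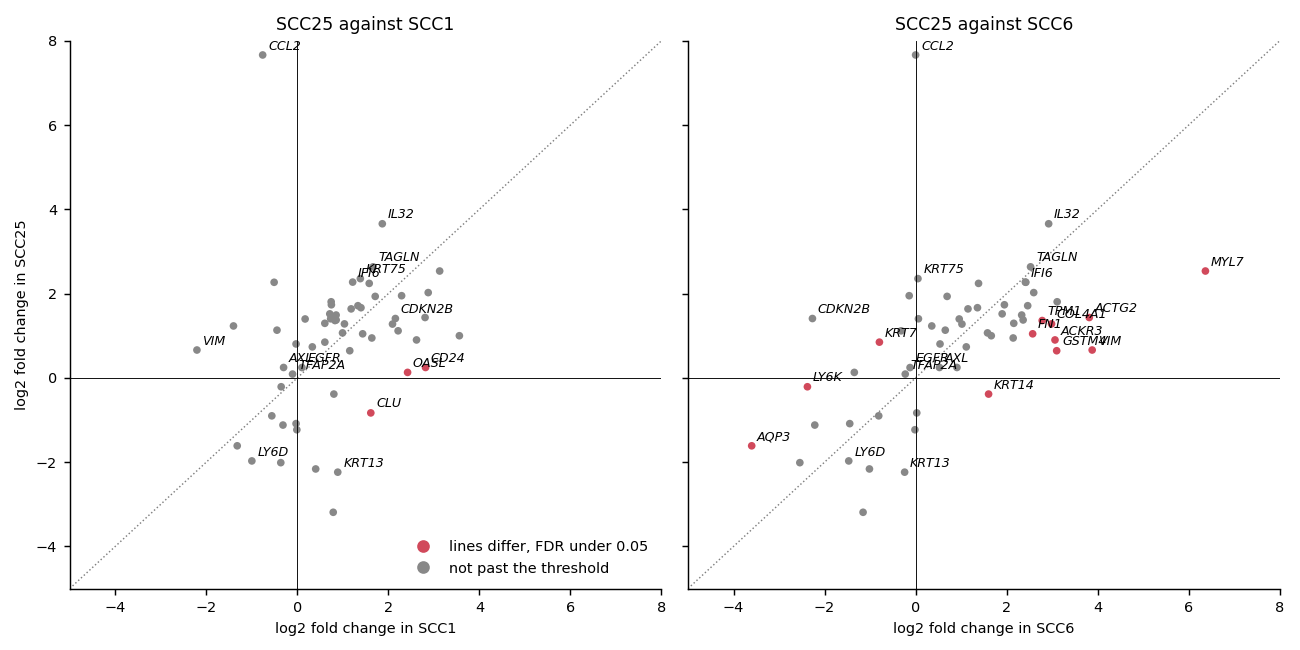
Fitted log2 fold change in SCC25 (y axis) against that in SCC1 (left) and SCC6 (right) for the named genes that passed a test and the 4 genes the study followed, in red where the difference between the lines passed. Red genes lie far from the dotted line of equal effect, CD24, OASL and CLU against SCC1, and VIM, MYL7, KRT14 and others against SCC6.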

How the data were processed

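According to the methods, the authors sequenced Chromium 3′ v2 libraries and processed the reads with Cell Ranger; the labels name GRCh38, and the version is not given in the sources used here. The deposited values are raw UMI counts per gene and cell, in 1 table per line, with no normalisation. All 23914 cells were used, and 0 columns of per-sample values were left unused. No doublet caller was run, and samples of SCC25 shared 3 to 13 cell barcodes.

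UMI counts were summed per sample and symbol (33514 symbols). 17897 genes passed filterByExpr. The main test was the quasi-likelihood F-test of edgeR 4.0.16 (R 4.3.3, TMM factors) on all 12 samples, with a block for each line and replicate number, an effect of treatment in each line and 3 residual degrees of freedom. Two-sided p-values were corrected with the Benjamini-Hochberg procedure over all genes, with a threshold of 0.05. Values are log2 fold change ± standard error and TMM-scaled CPM. The standard error comes from the fit of all 12 samples, which share 1 estimate of the spread per gene. It is not the spread between the 2 SCC25 pairs. For IFI6 the log2 changes were 3.24 in pair 1 and 1.30 in pair 2, beside a standard error of 0.38. Summed marker levels use raw totals. The pairing was checked: same-numbered samples deviated together from their group means (Pearson r = 0.598 in SCC25, 0.377 in SCC1 and 0.349 in SCC6 over 17897 genes). The study tested single cells, which are not replicates. On simulated data with the same means and depths (17713 genes), changes were put only into a sample of abundant genes. Noise followed the fitted trend of the spread rather than the spread of each gene. Of these abundant genes the SCC25 test recovered 89% of those changed by 1 on the log2 scale and 99% of those changed by 2. These shares do not cover low transcripts or genes that vary more than the trend, and a gene that did not pass may still have changed. DESeq2 1.42.0 and the other settings are alternatives.

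Named genes are the 15 largest rises and 10 largest falls with a mean of at least 20 CPM and 1 sign in both pairs, list members past the threshold, VIM, TFAP2A, EGFR and AXL, up to 3 genes per direction for each difference between lines, and the 3 most abundant members of each list. A few of the genes so chosen are not reported here. The genes, lists and tests were chosen with earlier results of these data known. Promoter sequences are those of RefSeq on GRCh38.p14, matched by symbol.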

Additional observations from a re-analysis of the deposited data

Results flagged for a closer look

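The effect of cetuximab differed between SCC25 and another line for 16 of the genes named above, by the edgeR test of the difference itself, on the log2 scale. Against SCC1 the differences were -2.45 for CLU, -2.57 for CD24, -2.29 for OASL and -3.20 for HRASLS2, all lower in SCC25. Against SCC6 the effect in SCC25 minus that in SCC6 was -3.83 for MYL7, -2.38 for ACTG2, -1.42 for TPM1, -1.53 for FN1, -1.71 for COL4A1, -3.22 for VIM, -2.16 for ACKR3, -1.99 for KRT14 and -2.46 for GSTM4. It was 1.99 for AQP3, 1.64 for KRT7 and 2.17 for LY6K. These differences were tested with the pairing by replicate number, and their causes were not tested.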

How the results depend on the processing

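Pairing by replicate number decided the counts. With no replicate block, 0 SCC25 genes passed in edgeR, in the fit of all samples and in that of the SCC25 samples alone, and 0, 0, 0 and 1 when 1 of the 4 SCC25 samples was also left out. The differences from SCC1 and from SCC6 were then 0 in each of these fits of all samples. A replicate term shared by the lines gave 29, 0 and 15 genes (SCC25, against SCC1, against SCC6). The 4 SCC25 samples alone with the block gave 393. DESeq2 gave 607, 137 and 883 genes with the block and 101, 6 and 176 without it, and no low-count filter gave 475, 85 and 669. Without replicate 1 and without replicate 2 the counts ranged from 6 to 156 for SCC25, 6 to 7 against SCC1 and 0 to 147 against SCC6. DESeq2 size factors, thinned totals and both ways of leaving out cells gave 159 to 177, 3 to 5 and 94 to 125.

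Of the 25 genes with the largest changes, 24 or 25 passed under those 4 settings and 25 under DESeq2 with the block. Fits that left out a whole pair keep 1 SCC25 sample per treatment and take their spread from the other lines. The counts given above for these fits are therefore not taken as results, and the fits were read for effect size only. Signs turned only in unpaired fits without 1 sample, or for genes that had not passed. Without PBS replicate 2 the log2 change was 0.28 for KRT13, 0.39 for ALDH3A1, 0.68 for FBP1, 0.46 for CLU, 0.80 for KRT4, 0.0877 for KRT14 and -0.30 for AXL. Without cetuximab replicate 1 it was -0.52 for FN1 and -0.10 for AXL, and without cetuximab replicate 2 -0.12 for LUM, -0.36 for OASL and -0.25 for HRASLS2. Without PBS replicate 1 it was -0.47 for OASL and -0.32 for HRASLS2. Leaving out a pair gave -0.0767 to 0.60 for AXL, -0.13 to 0.418 for OASL and -0.0063 to 0.381 for HRASLS2. Apart from the pairing the causes were not tested. The list medians under each setting were added after seeing the data, and the squamous median turned to 0.15 in the unpaired fit without PBS replicate 2. Each group had 2 samples, and 13 of the 175 genes had a mean below 1 CPM.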

Other observations

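Transcription factors outside the lists also passed the paired edgeR test, and the genes of this paragraph were chosen after their values were seen. SOX4, a factor of progenitor cells, measured 108 and 94.7 CPM in PBS and 267 and 206 CPM in cetuximab and rose by 1.21 ± 0.20 on the log2 scale (FDR = 0.041). SOX9 rose by 1.15 ± 0.20 and FOXC2, a forkhead factor known from mesenchymal development, by 1.25 ± 0.20, both at less than 20 CPM. PITX1, a homeobox factor of oral epithelium, fell by 0.74 ± 0.13, from 143 and 136 CPM to 77.2 and 90.5 CPM, and FOXQ1 fell by 1.42 ± 0.24. The groups did not overlap for any of these 5 genes. ID1, a BMP target, measured 1004 and 1638 CPM in PBS and 650.5 and 1065 CPM in cetuximab and fell by 0.62 ± 0.11, with overlap of the groups. BMP7, a ligand of the BMP receptors, fell by 1.26 ± 0.20.

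Genes that act with or respond to TGF-beta passed beside TGFB2. TGFBR2, its type II receptor, measured 8.91 and 5.73 CPM in PBS and 14.7 and 12.4 CPM in cetuximab (rise of 0.92 ± 0.14, FDR = 0.0345). PMEPA1, a known TGF-beta target, measured 134 and 93.8 CPM against 307 and 191 CPM (rise of 1.11 ± 0.19, FDR = 0.041), and ITGAV, the integrin alpha V chain that binds latent TGF-beta, 34.2 and 23.8 CPM against 111 and 46.0 CPM. PTGS2, cyclooxygenase-2, rose by 1.22 ± 0.13 from 13.95 and 8.94 CPM to 34.5 and 19.5 CPM. PDCD1LG2, the checkpoint ligand PD-L2, rose by 2.37 ± 0.29 from 1.12 and 0.573 CPM to 6.34 and 2.69 CPM. SAMD4A, an RNA-binding regulator of translation, rose by 2.84 ± 0.26 from 2.04 CPM in both PBS samples to 13.5 and 15.8 CPM. These genes form no list that was tested, and their joint direction is a description.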
